A study of Rattus norvegicus with 40 samples.

Results

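Glutathione, glucuronide and sulfate conjugation genes were followed in the kidneys of hypertensive and normotensive rats given antihypertensive drugs. The set held every gene with a single-symbol probe named Gst followed by a, k, m, o, p, t or z and a digit, or Ugt or Sult followed by a digit, without Gstm1. It also held Nqo1, Hmox1, Gclc, Gclm, Gsr, Txnrd1, Ephx1, Gpx1 and Gpx3. A probe also needed the quality flag GOOD on each of the 2 arrays of some group. Of 47 genes that matched by symbol, 40 passed the flag rule, out of 10759 genes with a tested probe on the arrays. They were 17 glutathione transferases, 6 genes with a Ugt symbol, 8 sulfotransferases and the 9 listed genes. Gstm6l, Sult2a1, Sult2a2, Sult2a6, Ugt2b, Ugt2b1 and Ugt2b10 did not pass and have no value here. The rule itself uses symbols and flags and no difference between groups.

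Conjugating enzymes attach a water-soluble group to drugs, hormones, bile pigments and products of oxidation, so that transporters can carry them into urine or bile. Glutathione transferases add glutathione, UDP-glucuronosyltransferases add glucuronic acid and sulfotransferases add sulfate, and the kidney carries out all of these reactions, mostly in the proximal tubule. Several of the genes, among them Nqo1, Gclc, Gclm, Txnrd1 and some glutathione transferases, are textbook targets of NRF2, a transcription factor released by oxidative or electrophilic stress.

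Kidney RNA of male rats aged 16 weeks was measured on 40 one-colour CodeLink arrays, 2 for each of 20 groups of strain and compound. SHRSP/Izm is an inbred stroke-prone strain with spontaneous hypertension, and WKY/Izm is the inbred normotensive strain it is usually compared with, so each strain stands for 1 inbred colony. Each strain received enalapril, an angiotensin-converting enzyme inhibitor, or amlodipine, a calcium channel blocker, or chlorothiazide, a thiazide diuretic, each at 20 mg/kg per day. Other rats received hydralazine, a vasodilator, at 10, carvedilol, a beta and alpha-1 adrenoceptor blocker, at 50, or candesartan, an angiotensin receptor blocker, at 5 mg/kg per day. The controls received H2O, Solvent A, Solvent B or Solvent C. By the labels, Solvent A held PEG, ethanol and sodium bicarbonate, and Solvent B held sodium hydroxide. Solvent C held MC, which the labels do not spell out. Which vehicle belongs to which drug is absent from the labels, so the pairing is an assumption. Candesartan was set against Solvent A, chlorothiazide against Solvent B, carvedilol against Solvent C and the other drugs against H2O. Each array is labelled with 2 animals. The sources do not say whether their RNA was pooled or how long treatment lasted. The p-values measure the spread between these arrays.

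Values are log2 intensities after quantile normalisation, on which 0 is close to the median probe of an array and -1.40 is the floor. Levels of different probes are not comparable on this scale. A gene was called when limma's Benjamini-Hochberg adjusted p over 24993 probes was below 0.05. Between 59.3% and 72.6% of the spots on an array had a GOOD flag, and the arrays of a group differed by 0.16 to 0.42 log2 units (root mean square over probes). All 8 proximal tubule markers were measured above the floor, with summed intensities of 1027 to 1163 on SHRSP vehicle arrays and 1023 to 1109 on WKY vehicle arrays. A floor value on some array was found in 6 members, Gstm2, Gstp3, Sult5a1, Ugt1a7c, Ugt2a1 and Ugt2b7, whose differences may understate the change.

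The strains differed in many conjugation genes, in both directions. On the vehicles, 8 SHRSP arrays were set against 8 WKY arrays, each vehicle within 1 scan session and 1 array series. Of the 40 genes 18 were called, 11 higher and 7 lower in SHRSP, which is 45%, against 21.8% of all tested probes. The median difference of the 40 was 0.016 (log2), and that of all probes was close to 0. The 4 alpha class glutathione transferases and 5 of 8 sulfotransferases were higher in SHRSP, whereas the transferases Gsto1, Gstp1, Gstt2 and Gstm4 and microsomal epoxide hydrolase were lower. In whole kidney RNA, fewer cells of a type and less RNA per cell cannot be told apart. Markers of other cell types moved with strain as well. All 4 macrophage markers (Lyz2, Cd74, Cd68 and C1qa) were called higher in SHRSP, with summed intensities of 148.3 to 222.6 in SHRSP and 92.9 to 133.7 in WKY. Cd74 was the brightest of them (mean 7.28 on SHRSP vehicle arrays, against 4.19 for Lyz2, the next) and dominates these sums. The 3 distal convoluted tubule markers summed to 90.6 to 109.1 in SHRSP and 76.5 to 87.7 in WKY (Slc12a3 called higher), and the 2 podocyte markers to 18.6 to 20.7 in SHRSP and 15.3 to 18.4 in WKY (Podxl called higher). Umod of the thick ascending limb and Aqp3, 1 of 3 collecting duct markers, were called higher, and the liver marker Cyp2c11 lower. The adrenal and blood markers were not called. Of the 8 proximal tubule markers, Aqp1 was called higher (0.36 ± 0.092) and Slc5a2 lower (-0.33 ± 0.069). The part of these markers in the differences below was not tested.

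**Figure D1:**
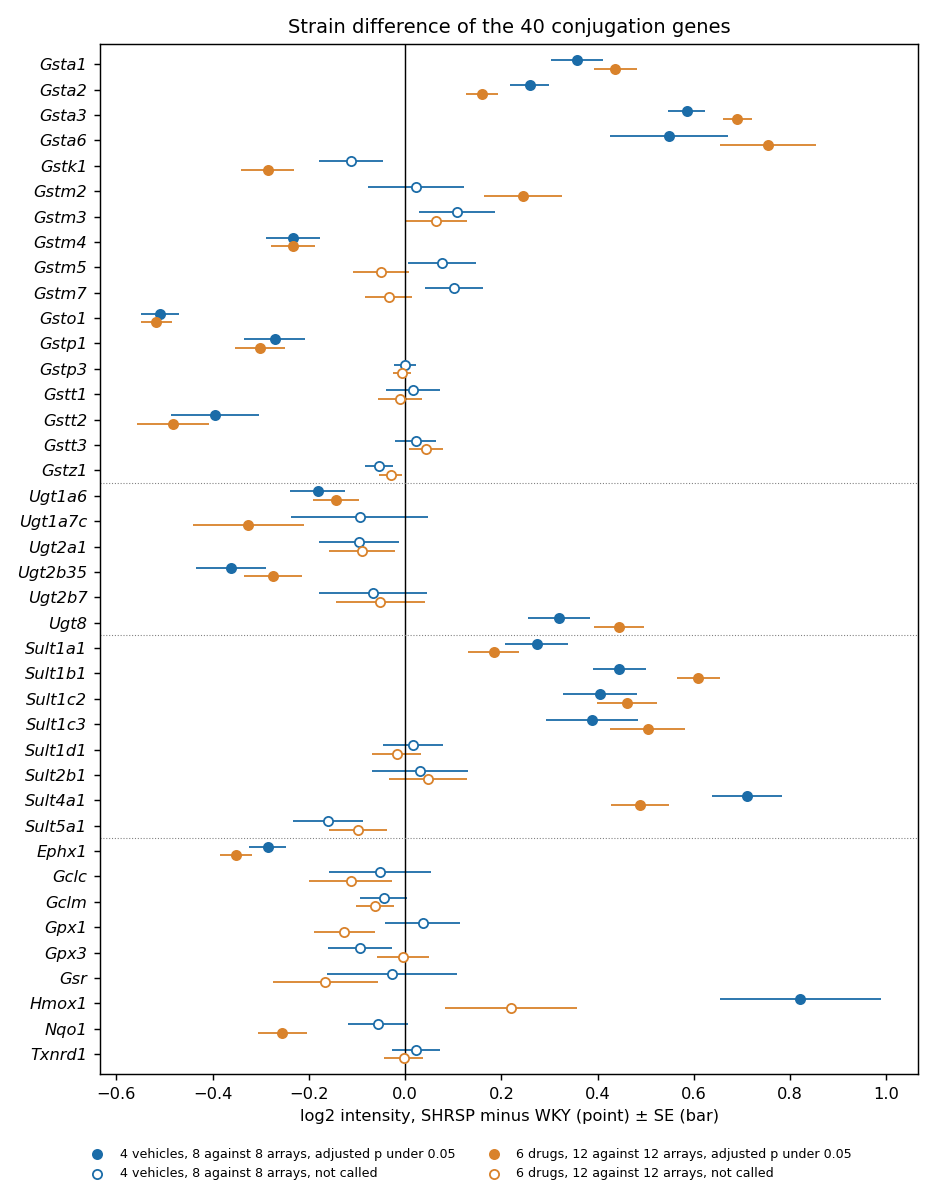
Difference in log2 intensity, SHRSP minus WKY, of the 40 genes on vehicles (blue, upper point) and under drugs (orange, lower point), with the standard error of the limma fit as a bar. Filled points are called at an adjusted p below 0.05, 18 on vehicles and 21 under drugs, and dotted lines separate Gst, Ugt, Sult and the listed genes.

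All 4 alpha class glutathione transferases measured were called higher in SHRSP, though the Gsta2 call depended on the scaling. These enzymes conjugate electrophiles, reduce lipid hydroperoxides and bind bile pigments, and they are abundant in proximal tubule. Gsta3 had values of 3.02, 3.16 and 3.34 on SHRSP vehicle arrays (lowest, median and highest), against 2.41, 2.63 and 2.72 on WKY vehicle arrays. Every SHRSP array lay above every WKY array. The difference was 0.59 ± 0.038 (log2 ± SE, n = 8 each), a 1.5-fold higher level, with a limma adjusted p of 2.33e-11. Over the 4 vehicles it ranged from 0.45 to 0.73.

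Gsta6 was also higher in SHRSP, by 0.55 ± 0.12 (limma adjusted p = 0.00181), with -0.34, -0.057 and 0.22 in SHRSP and -1.09, -0.59 and -0.22 in WKY. The groups overlapped. Gsta1 had 5.95, 6.37 and 6.67 in SHRSP, against 5.59, 6.07 and 6.25 in WKY. The 8 SHRSP and 8 WKY arrays overlapped, and in both strains the H2O arrays were the lowest. Within each vehicle the SHRSP mean was the higher, by 0.14 to 0.63. The fitted difference of Gsta1 was 0.36 ± 0.054 (limma adjusted p = 2.6e-05). For Gsta2 the difference was 0.26 ± 0.041 (limma adjusted p = 4.22e-05), with 0.16 to 0.47 for the 3 solvents and -0.0091 for H2O. The Gsta2 call was lost with median scaling and in the authors' series table. Over the alternatives its difference lay between 0.055 and 0.26, with a limma adjusted p of up to 0.696. The alpha class genes are closely related, and the array's probe sequences were not used here, so signal shared between them cannot be told apart.

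The genes' start regions were read from RefSeq (build GRCr8, 250 bases before to 50 after the annotated start) to show the 4 alpha class genes that stood together in the strain comparison. Gstp1, which went the other way, is shown beside them. Gsta1 (chr9:31216483-31216782, minus strand), Gsta3 (chr9:31154739-31155038, plus strand) and Gsta6 (chr9:31275302-31275601, minus strand) lie close together on chromosome 9, while Gsta2 (chr8:88077043-88077342, minus strand) is on chromosome 8 and Gstp1 (chr1:210769656-210769955, minus strand) on chromosome 1. Sequences run 5′ to 3′ on the gene's strand, and capitals mark the core of the antioxidant response element, TGACNNNGC on either strand, to which NRF2 binds with a small MAF partner.
Gsta1: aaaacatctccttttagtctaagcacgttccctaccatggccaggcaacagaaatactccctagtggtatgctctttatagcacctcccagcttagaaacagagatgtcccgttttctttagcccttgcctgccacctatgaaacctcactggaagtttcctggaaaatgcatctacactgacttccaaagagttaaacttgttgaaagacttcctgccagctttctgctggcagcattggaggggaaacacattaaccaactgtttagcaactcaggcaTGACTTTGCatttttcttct
Gsta2: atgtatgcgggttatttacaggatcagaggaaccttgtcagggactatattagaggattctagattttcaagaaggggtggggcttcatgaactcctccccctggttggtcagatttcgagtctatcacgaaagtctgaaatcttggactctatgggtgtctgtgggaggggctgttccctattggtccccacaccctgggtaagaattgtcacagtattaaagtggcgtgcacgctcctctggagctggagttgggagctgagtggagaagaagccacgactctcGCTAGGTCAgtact
Gsta3: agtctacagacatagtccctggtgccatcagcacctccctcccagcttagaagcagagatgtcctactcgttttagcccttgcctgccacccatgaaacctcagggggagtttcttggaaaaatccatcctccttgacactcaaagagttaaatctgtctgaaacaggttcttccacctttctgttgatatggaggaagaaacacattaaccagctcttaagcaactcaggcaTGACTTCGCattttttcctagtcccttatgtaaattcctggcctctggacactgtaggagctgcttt
Gsta6: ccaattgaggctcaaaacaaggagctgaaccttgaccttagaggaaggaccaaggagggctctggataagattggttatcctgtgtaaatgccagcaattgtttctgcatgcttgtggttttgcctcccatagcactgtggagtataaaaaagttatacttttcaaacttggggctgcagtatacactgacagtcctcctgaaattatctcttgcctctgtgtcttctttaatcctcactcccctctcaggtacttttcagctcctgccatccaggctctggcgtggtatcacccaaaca
Gstp1: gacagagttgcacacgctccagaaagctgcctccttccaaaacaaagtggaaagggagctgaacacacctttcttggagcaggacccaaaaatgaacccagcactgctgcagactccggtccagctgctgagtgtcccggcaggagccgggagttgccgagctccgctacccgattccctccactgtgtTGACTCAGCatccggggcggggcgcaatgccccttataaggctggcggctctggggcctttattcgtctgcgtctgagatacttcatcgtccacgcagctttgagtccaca
The core was found in 10 of 37 start regions of the members in the table (27.0%), and in 12.1% of all 33469 start regions of this length. Gsta1, Gsta2, Gsta3 and Gstp1 hold it and Gsta6 does not, so higher and lower genes alike carried the letters. Relative to the annotated start, the core begins at -17 in Gsta3 and -61 in Gstp1. In Gsta1 and Gsta2 it lies past the start, at 30 and 36. The sequences are of the reference build, and those of SHRSP and WKY were not read. A second annotated start of Gsta3 holds no core. A match of these letters is a description of the sequence only.

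Other glutathione transferases were lower in SHRSP. Gsto1, the omega class enzyme that acts as a thiol transferase and reduces methylated arsenic, had 3.50, 3.60 and 3.80 on SHRSP arrays and 4.03, 4.07 and 4.33 on WKY arrays. No SHRSP array reached the lowest WKY array. The difference was -0.51 ± 0.039 (limma adjusted p = 5.3e-10), 1.42-fold lower in SHRSP, and it ranged from -0.67 to -0.44 over the 4 vehicles. Gstt2, a theta class enzyme, was lower in SHRSP, at -0.40 ± 0.092 (limma adjusted p = 0.00252).

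Gstp1, the pi class enzyme that is prominent in distal tubule and collecting duct, had 6.83, 6.99 and 7.17 in SHRSP, against 7.12, 7.21 and 7.47 in WKY. The 2 strains overlapped slightly, and the difference of -0.27 ± 0.064 was called (limma adjusted p = 0.003). Of the markers of these sites, Slc12a3 and Aqp3 were called higher in SHRSP, each 1 of 3 in its list. Their part in the Gstp1 value was not tested. The mu class gene Gstm4 differed by -0.23 ± 0.056 (limma adjusted p = 0.00347), a call that was absent in the authors' series table. The remaining 9 of the 17 transferases were not called on vehicles. Among them were the maleylacetoacetate isomerase Gstz1 at -0.054 ± 0.03, Gstt1 at 0.016 ± 0.056 and Gstt3 at 0.022 ± 0.043. In all, 4 transferases were higher, 4 lower and 9 not called.

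Sulfotransferases that differed were all higher in SHRSP, 5 of 8 called and none lower. Sult4a1, a member of the family with no established substrate that is known mainly from brain, had 2.58, 2.72 and 3.06 on SHRSP arrays, against 1.74, 2.08 and 2.25 on WKY arrays. The arrays of the strains did not overlap. The difference was 0.71 ± 0.073, or 1.64-fold (limma adjusted p = 7.98e-08), while its other probe gave 0.37 ± 0.065 (limma adjusted p = 0.00013).

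Sult1c2, a phenol sulfotransferase prominent in rat kidney, had 6.77, 6.89 and 7.10 in SHRSP and 6.25, 6.52 and 6.73 in WKY, again without overlap. Its difference was 0.41 ± 0.077 (limma adjusted p = 0.000375), and a dimmer probe gave a larger one, 1.09 ± 0.067 (limma adjusted p = 7.78e-12). The probes of Sult1c2 thus agree in sign and not in size. Its neighbour in the family, Sult1c3, was higher by 0.39 ± 0.096 (limma adjusted p = 0.0044), and its other probe gave 0.28 ± 0.11 without a call (limma adjusted p = 0.0628). Sult1b1, which sulfates thyroid hormones and phenols, differed by 0.45 ± 0.055 (limma adjusted p = 1.35e-06) and had 0.75, 0.85 and 1.17 in SHRSP, against 0.24, 0.37 and 0.79 in WKY. Sult1a1, the main phenol sulfotransferase, differed by 0.27 ± 0.065 (limma adjusted p = 0.00327), from -0.047 with Solvent B to 0.61 with Solvent C. The cholesterol sulfotransferase Sult2b1 (0.031 ± 0.1), Sult1d1 (0.016 ± 0.062) and Sult5a1 (-0.16 ± 0.073) were not called, and all 8 SHRSP vehicle arrays had Sult5a1 at the floor.

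Of 6 genes with a Ugt symbol, 1 was higher and 2 were lower in SHRSP. Ugt8, which makes galactosylceramide for membranes and conjugates no drug, had 2.28, 2.46 and 2.68 in SHRSP and 1.97, 2.17 and 2.28 in WKY. The highest WKY array lay just above the lowest SHRSP array, and the difference was 0.32 ± 0.064 (limma adjusted p = 0.000664). Ugt2b35 was lower, at -0.36 ± 0.073 (SHRSP minus WKY, limma adjusted p = 0.000684), ranging from -0.59 to -0.055 over the vehicles. Ugt1a6, which conjugates small planar phenols, differed by -0.18 ± 0.058 (limma adjusted p = 0.0258), and the call ended without any 1 of 6 arrays (SHRSP H2O 2, Solvent A 1 and Solvent B 2, and WKY H2O 2, Solvent A 2 and Solvent C 1). Ugt1a6 and Ugt1a7c share their last exons at 1 locus, so their probes may read shared transcript. Ugt1a7c (-0.095 ± 0.14), Ugt2a1 (-0.097 ± 0.083) and Ugt2b7 (-0.067 ± 0.11) were not called.

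Among the 9 listed genes of glutathione supply and oxidative stress, Hmox1 was higher and Ephx1 lower in SHRSP, and 7 were not called. Hmox1, heme oxygenase 1, breaks heme down to biliverdin, iron and carbon monoxide and is induced by heme, oxidants and inflammation. It had 0.14, 0.58 and 1.53 on SHRSP vehicle arrays, against -0.34, -0.04 and 0.26 on WKY vehicle arrays. The SHRSP arrays were widely spread (SD 0.498, against 0.235 in WKY), and the lowest of them lay within the WKY range. The difference of 0.82 ± 0.17 was 1.77-fold (limma adjusted p = 0.000775), and it was 1.19 with Solvent B, 1.00 with H2O, 0.77 with Solvent A and 0.33 with Solvent C. Macrophages, which take up heme from red cells, express this gene, and their 4 markers moved the same way. Their part in the Hmox1 value was not tested.

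Ephx1, microsomal epoxide hydrolase, had 5.36, 5.64 and 5.74 in SHRSP and 5.74, 5.90 and 6.06 in WKY. The groups overlapped only near 5.74, and the difference was -0.29 ± 0.038 (limma adjusted p = 5.9e-06), with -0.25 ± 0.089 from its other probe (limma adjusted p = 0.0472). The quinone reductase Nqo1 differed by -0.056 ± 0.062, the catalytic and modifier subunits of glutamate-cysteine ligase, Gclc and Gclm, by -0.052 ± 0.11 and -0.045 ± 0.048, and glutathione reductase Gsr by -0.028 ± 0.14. Thioredoxin reductase Txnrd1 differed by 0.023 ± 0.05, the cytosolic glutathione peroxidase Gpx1 by 0.037 ± 0.078 and the plasma peroxidase Gpx3, which proximal tubule secretes, by -0.093 ± 0.066. None of these 7 was called, and their limma adjusted p lay between 0.374 and 0.936. Other probes of Gclc gave -0.20 ± 0.074 (limma adjusted p = 0.0575) and -0.25 ± 0.11, also without a call.

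Only 4 of the 40 genes had no overlap between the 8 SHRSP and the 8 WKY vehicle arrays, Gsta3, Sult4a1 and Sult1c2 above and Gsto1 below. Of all tested probes, 4.66% had none.

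Rats under drugs, 12 arrays of other animals per strain, showed the strain differences again. Of the 40 genes 21 were called, 11 higher and 10 lower in SHRSP (52.5%), against 26.1% of all tested probes. Of the 18 genes called on vehicles, 17 were called under drugs with the same sign, which is 94.4% of the vehicle calls and 81.0% of the drug calls. The same shares over all tested probes were 73.6% and 61.4%. Gsta3 was higher by 0.69 ± 0.031 (limma adjusted p = 1.46e-14), with 3.07, 3.23 and 3.43 in SHRSP and 2.38, 2.54 and 2.80 in WKY, and Gsto1 was lower, at -0.52 ± 0.032 (limma adjusted p = 7.25e-12). Both genes kept their strains apart in all 6 drug groups, Gsta3 by 0.54 to 0.78 and Gsto1 by -0.56 to -0.47. Gsta3, Gsto1 and Ugt8 were the 3 genes without overlap between the 12 SHRSP and the 12 WKY drug arrays, and 2.78% of all tested probes had none either. Ephx1 had no value on 1 SHRSP amlodipine array, so its fit used 11 SHRSP drug arrays.

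The gene whose strain call was absent under drugs was Hmox1, at 0.22 ± 0.14 (limma adjusted p = 0.27). Its drug arrays had -0.14, 0.0033 and 1.05 in SHRSP and -0.75, -0.042 and 0.37 in WKY. The strain difference on vehicles was not tested against that over all 6 drugs. Called under drugs alone were Gstk1, a mitochondrial and peroxisomal transferase, at -0.29 ± 0.055 (limma adjusted p = 0.000319), and Nqo1 at -0.26 ± 0.051 (limma adjusted p = 0.000492). Gstm2 at 0.24 ± 0.081 and Ugt1a7c at -0.33 ± 0.12 were the other such calls. The enalapril arrays of the strains belong to different array series, and without that pair 18 genes were called, with Gstm2, Ugt1a6 and Ugt1a7c lost. That pair also gave Gstk1 its largest difference, -0.66, against -0.29 to -0.16 in the other drug pairs.

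**Figure D2:**
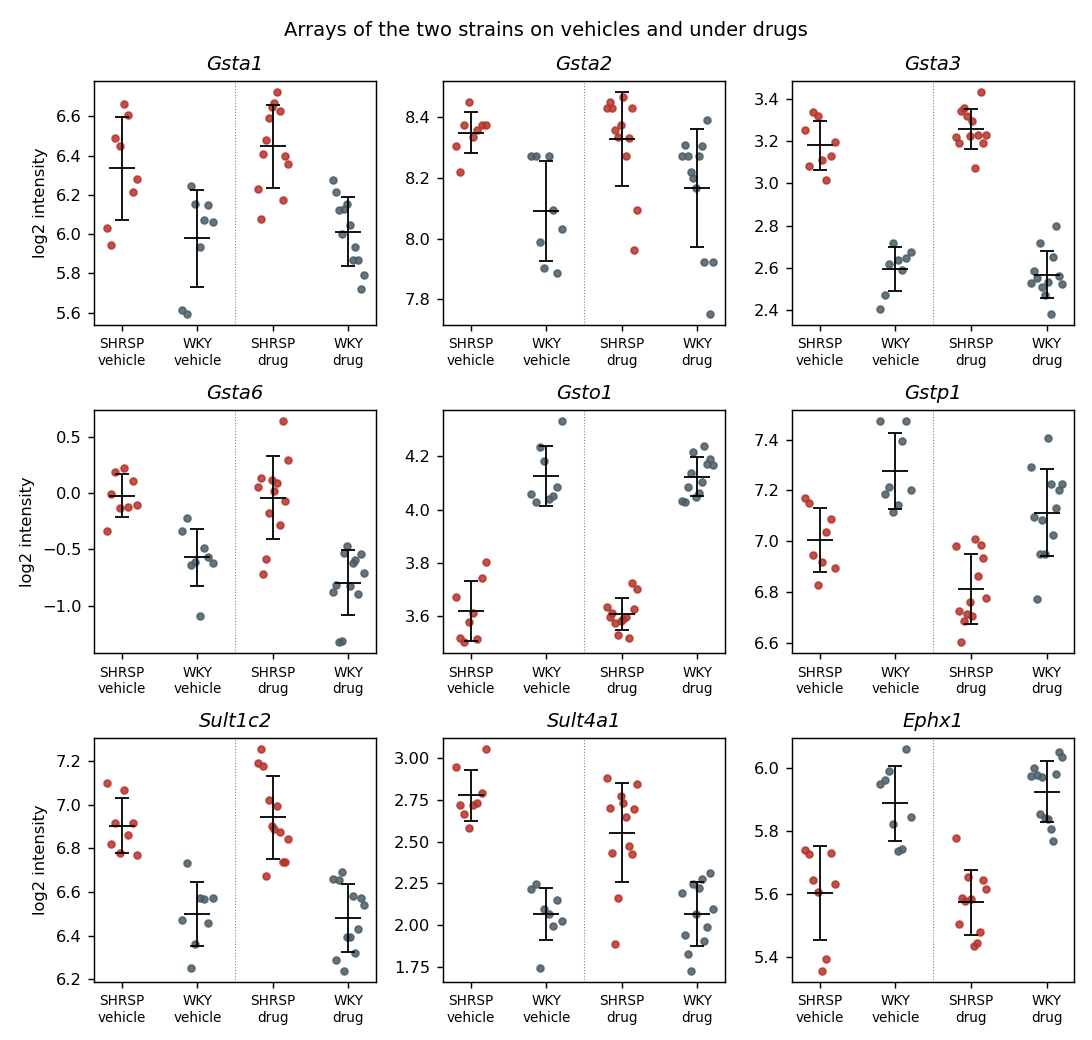
Log2 intensity on each array (points) with mean ± SD (bars), for 9 genes, in SHRSP (red) and WKY (grey) on vehicles (8 arrays each) and under drugs (12 arrays each, 11 for Ephx1 in SHRSP). Gsta3 and Gsto1 keep the strains apart in both sets, while Gsta1 and Gsta2 overlap.

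Drug effects were read first where a drug and its vehicle shared scan session and array series, as candesartan, chlorothiazide and carvedilol did in both strains and enalapril in SHRSP. Few conjugation genes were called. Candesartan and chlorothiazide gave 0 of 40 calls by limma, against 0.052% and 0.112% of all tested probes. Carvedilol gave 1 call, against 0.148%, and enalapril in SHRSP gave 1, against 0.98%. An unadjusted p below 0.05 was found in 5 of 40 genes for candesartan, against 550 of the 24993 probes. The counts were 7 against 1403 for chlorothiazide, 6 against 2048 for carvedilol and 7 against 2817 for enalapril. The share was higher in the set each time, which was not tested. The set has 1 probe per gene, while the tested probes include several of a gene and others without a gene symbol. With 4 arrays on each side, the 95% interval of a gene's difference reached 0.066 to 0.49 log2 units to either side, with a median of 0.19 over the 40 genes. For enalapril, with 2 arrays on each side, it reached 0.093 to 0.70, with a median of 0.27. Genes named below without a call were chosen after their values were seen.

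**Figure D3:**
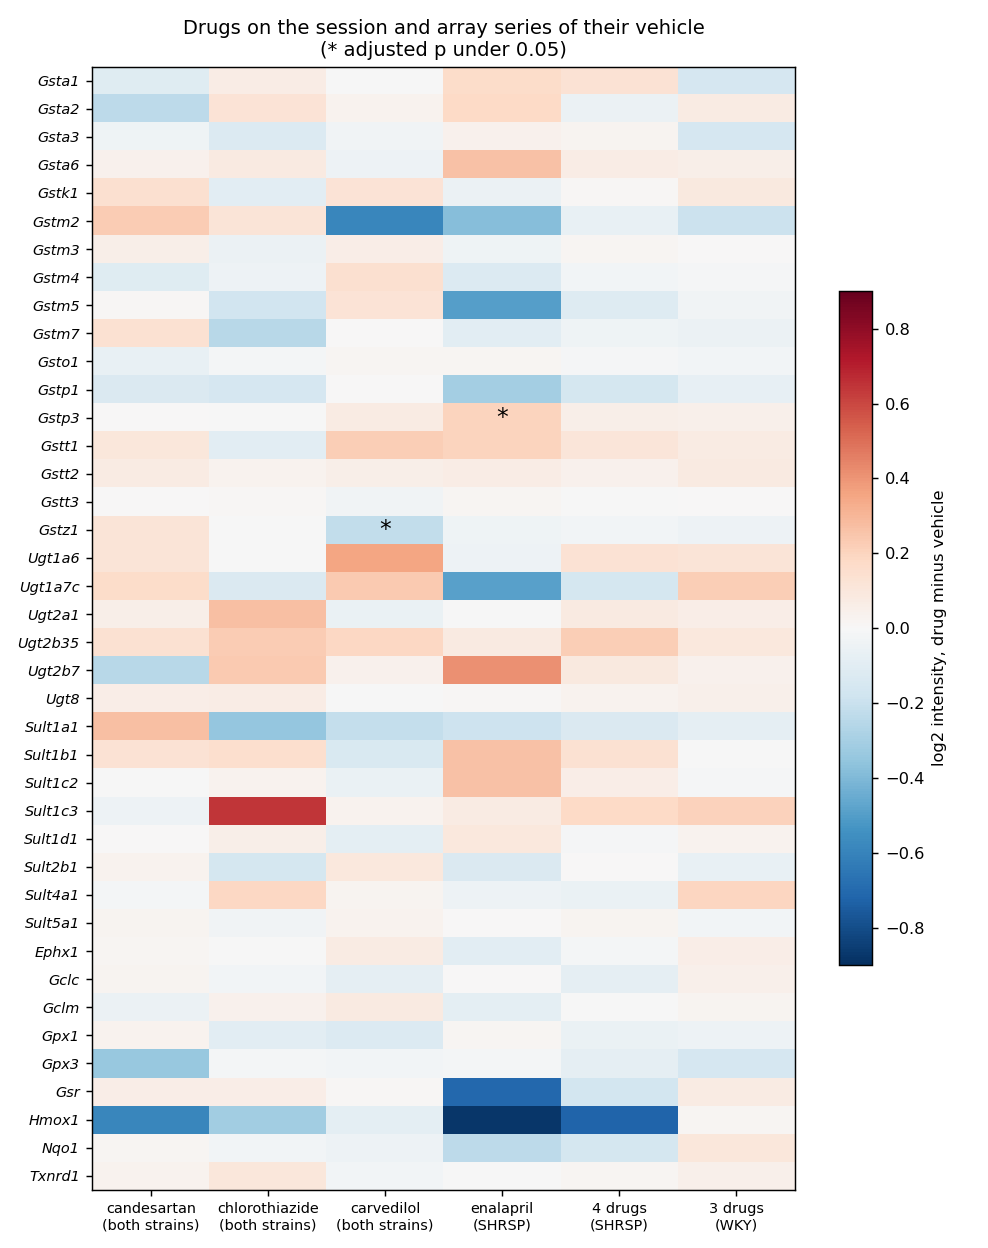
Log2 difference, drug minus vehicle, of the 40 genes (rows) for 3 drugs over both strains, for enalapril in SHRSP, and for the means over 4 drugs in SHRSP and 3 drugs in WKY (columns). Asterisks mark the calls, Gstz1 under carvedilol and Gstp3 under enalapril, and the darkest blue is Hmox1 in SHRSP.

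Hmox1 had the largest negative difference of the 40 genes in SHRSP. Averaged over the 4 drugs it was -0.72 ± 0.17 (95% interval -1.07 to -0.37), with a limma adjusted p of 0.0569, so it missed the threshold. In that comparison 0 of 40 genes were called by limma, against 0.452% of all tested probes. At an unadjusted p below 0.05 were 8 of 40 genes and 2051 of the 24993 probes. Under enalapril Hmox1 had -0.14 and -0.09, against 0.41 and 1.11 with H2O. Under candesartan it had 0.00048 and 0.30, against 0.54 and 1.40 with Solvent A. Under chlorothiazide it had 0.37 and -0.032, against 1.53 and 0.54 with Solvent B. Under each of these 3 drugs, and by a small margin under carvedilol, both SHRSP drug arrays lay below both vehicle arrays. Under carvedilol the values were 0.11 and -0.0019, against 0.14 and 0.63 with Solvent C. Without a matched vehicle, SHRSP arrays had 1.05 and -0.01 under amlodipine and 0.006 and 0.42 under hydralazine. The differences of the matched drugs were -0.88, -0.82, -0.87 and -0.33 for enalapril, candesartan, chlorothiazide and carvedilol. The 8 SHRSP vehicle arrays behind them are also those of the strain comparison on vehicles. A high value on these arrays raises the strain difference and lowers the drug difference, so the results are not independent.

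Hmox1 passed in 6 of 11 alternatives and missed in 5, with limma adjusted p between 0.0249 and 0.154. It passed with scan session as a fixed block (limma adjusted p = 0.0431) and as a random block (0.0344), with median scaling (0.0351) and in the other 3, and missed, for example, when other groups were kept out of the fit (0.154) and in the authors' series table (0.0818). It also passed when SHRSP arrays H2O 1, Solvent A 1, Solvent B 2 or Solvent C 1 were left out in turn, the differences then lying between -0.78 and -0.85, and missed when any 1 of the other 12 was left out, with -0.60 the smallest difference. In WKY, the mean over 3 drugs was 0.014 ± 0.19 (95% interval -0.39 to 0.42). There limma called 0 genes, against 0.032% (3 of 40 genes and 1268 of 24993 probes at an unadjusted p below 0.05). That WKY mean of Hmox1 held differences of both signs. WKY candesartan arrays had -0.18 and -0.14, both below 0.13 and 0.26 with Solvent A. Chlorothiazide arrays had 0.16 and 0.026, against 0.04 and -0.34 with Solvent B. Carvedilol arrays had 0.06 and 0.36, against 0.22 and -0.12 with Solvent C. The test of the difference between the strains, over those 3 drugs, gave -0.68 ± 0.27 for Hmox1 and no call (limma adjusted p = 0.96). It called 0 of 40 genes, against 0.004% (6 of 40 genes and 1218 of 24993 probes at an unadjusted p below 0.05). The 4 macrophage markers had a median difference of -0.18 under the 4 drugs in SHRSP, with none called, and their part in the Hmox1 values was not tested.

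**Figure D4:**
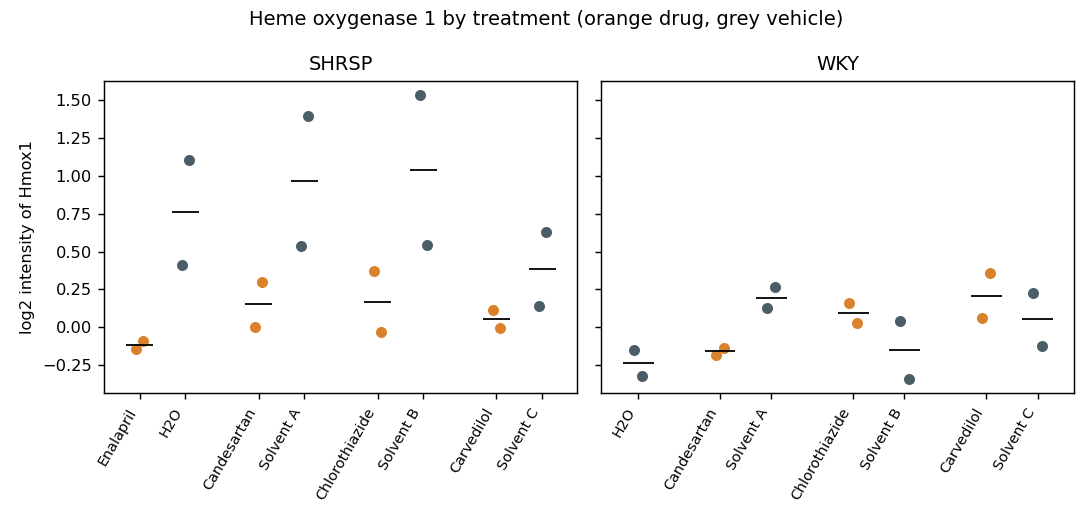
Log2 intensity of Hmox1 on each array (points) with the group mean (line), drugs in orange left of their vehicle in grey, in SHRSP and in WKY. WKY enalapril is left out because its arrays are of another array series than H2O. SHRSP vehicle arrays reach 1.53, and no SHRSP drug array shown passes 0.37.

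Gstz1, the enzyme of tyrosine breakdown that also metabolises dichloroacetate, was lower under carvedilol, at -0.22 ± 0.042 (log2, drug minus vehicle, limma adjusted p = 0.0287). Carvedilol arrays had 4.69 and 4.62 in SHRSP, against 4.85 and 4.69 with Solvent C. In WKY they had 4.59 and 4.68, against 4.99 and 4.91. The mean was below the vehicle's in both strains, at -0.12 in SHRSP and -0.32 in WKY. The call did not hold in 6 of the alternatives, nor without any of the arrays WKY Solvent C 1, WKY carvedilol 1, SHRSP Solvent C 1 or SHRSP carvedilol 2. Ugt1a6 missed the threshold under carvedilol at 0.35 ± 0.082 (limma adjusted p = 0.0878). It had 5.45 and 5.44 in SHRSP, against 5.15 and 5.18 with Solvent C, and 5.57 and 5.64 in WKY, against 5.22 and 5.15. In both strains the arrays of drug and vehicle did not overlap, and Ugt1a6 was called in 4 alternatives, among them scan session as a fixed block (limma adjusted p = 0.0251). Gstm2, a mu class transferase, had a difference of -0.58 ± 0.14 without a call (limma adjusted p = 0.111), and both WKY carvedilol arrays were at the floor, so its size is not defined there. It was called without the first SHRSP carvedilol array (limma adjusted p = 0.0384), with normexp (-0.46, 0.0371), in the authors' series table (-0.90, 0.0263) and with the pooled floor (-0.75, 0.0341).

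Chlorothiazide gave its largest difference in Sult1c3, 0.64 ± 0.14 (95% interval 0.36 to 0.92), which missed the threshold (limma adjusted p = 0.0765). In SHRSP the drug arrays had 0.60 and 0.63, against 0.17 and 0.032 with Solvent B. In WKY they had 0.36 and 0.20, against -0.72 and -0.27. All 4 drug arrays were above both vehicle arrays of their strain. The other Sult1c3 probe gave 0.43 ± 0.15 (limma adjusted p = 0.656). The gene was called with scan session as a fixed block (limma adjusted p = 0.0087) or a random block (0.0145), with median scaling (0.0209) and without the array WKY Solvent B 2 (0.039). Candesartan gave its smallest p in Gsta2, at -0.23 ± 0.058 (limma adjusted p = 0.315). Gsta2 had 7.96 and 8.09 in SHRSP, against 8.37 and 8.37 with Solvent A, and 7.75 and 7.92 in WKY, against 7.89 and 8.03. The SHRSP arrays were apart and the WKY arrays overlapped.

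Enalapril in SHRSP called Gstp3 alone, but none of the 4 arrays had a GOOD flag for it and both H2O arrays were at the floor, so no size is given. The enalapril arrays disagreed in Gsr, with 4.12 and 5.71 under enalapril, against 5.58 and 5.67 with H2O. The first enalapril array alone was low, the fitted -0.71 ± 0.27 was not called (limma adjusted p = 0.273), and it was -1.51 and called without the second enalapril array. A dimmer Gsr probe gave 0.96 and 1.06 under enalapril, against 1.05 and 0.79 with H2O. Gstm5 had 1.61 and 1.58 under enalapril, against 1.88 and 2.29 with H2O, and its -0.49 ± 0.14 was not called (limma adjusted p = 0.109).

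Amlodipine and hydralazine cannot be told apart from array series, because their arrays belong to another series and other scan sessions than the H2O arrays. Amlodipine called 17 of the 40 genes, 6 higher and 11 lower, against 31.4% of all tested probes. Hydralazine called 16, with 8 in each direction, against 29.1%. Higher under amlodipine than with H2O were Sult1a1 (0.87), Gstk1 (0.54), Gsta1 (0.51), Gpx1 (0.31), Sult1d1 (0.26) and Gsta3 (0.16), and lower were Gsta6 (-0.64), Sult1c3 (-0.57), Sult4a1 (-0.51), Gstm2 (-0.48), Gstp1 (-0.46), Nqo1 (-0.39), Gstm7 (-0.34), Gstm4 (-0.32), Gclm (-0.27), Sult1b1 (-0.24) and Gstz1 (-0.16). Higher under hydralazine were Gstk1 (0.72), Ugt1a7c (0.64), Sult1a1 (0.53), Gpx1 (0.50), Sult2b1 (0.46), Gsta1 (0.38), Ugt2b35 (0.35) and Gsta3 (0.23), and lower were Sult4a1 (-0.48), Gstm2 (-0.47), Gclc (-0.47), Gstp1 (-0.33), Nqo1 (-0.30), Gclm (-0.27), Ephx1 (-0.18) and Gstz1 (-0.15). Scan session as a fixed block was estimated from the groups split over sessions, hydralazine in both strains and enalapril in WKY. All their arrays are of series 2, so the block cannot adjust for the series of the H2O arrays. With that block, the sign turned for Gsta6 (0.16), Gpx1 (-0.076) and Gsta3 (-0.091) under amlodipine and for Gpx1 (-0.049), Gsta3 (-0.030) and Sult2b1 (-0.092) under hydralazine. Under that block Sult1c3 (-0.085) and Sult4a1 (-0.083) lost their amlodipine calls. Solvent B and Solvent C, which hold no drug and share array series 2 with both drugs, called 15 members against the same H2O arrays. Of these, 8 were higher and 7 lower, against 30.3% of all tested probes called. These comparisons share their H2O arrays. Enalapril in WKY, also on that series, called 7 members, 5 higher and 2 lower, against 6.38%.

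Gstk1 and Gpx1 were lower on all arrays of series 1 than on all arrays of series 2, whatever the compound. On series 3, with Solvent A and candesartan, Gstk1 averaged 4.31 and Gpx1 7.11, against 4.35 and 6.66 on series 1. Array series goes together with scan session and compound, so these cannot be told apart. Gstk1 had 4.72 and 4.92 in SHRSP and 5.01 and 4.98 in WKY under amlodipine, against 4.35 and 4.39 in SHRSP and 4.25 and 4.47 in WKY with H2O. With Solvent B it had 4.85 and 4.86 in SHRSP and 5.09 and 5.00 in WKY, with no drug given. All arrays with Solvent B or Solvent C lay above all H2O arrays. The differences from H2O were 0.54 for amlodipine, 0.72 for hydralazine, 0.62 for enalapril in WKY and 0.43 for the 2 solvents, but -0.05 for enalapril in SHRSP, on the series of H2O. For Gpx1 the same 4 differences were 0.31, 0.50, 0.65 and 0.45, but 0.02 on the series of H2O. For Gsta1 these values were 0.51, 0.38, 0.47 and 0.53, against 0.16.

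**Figure D5:**
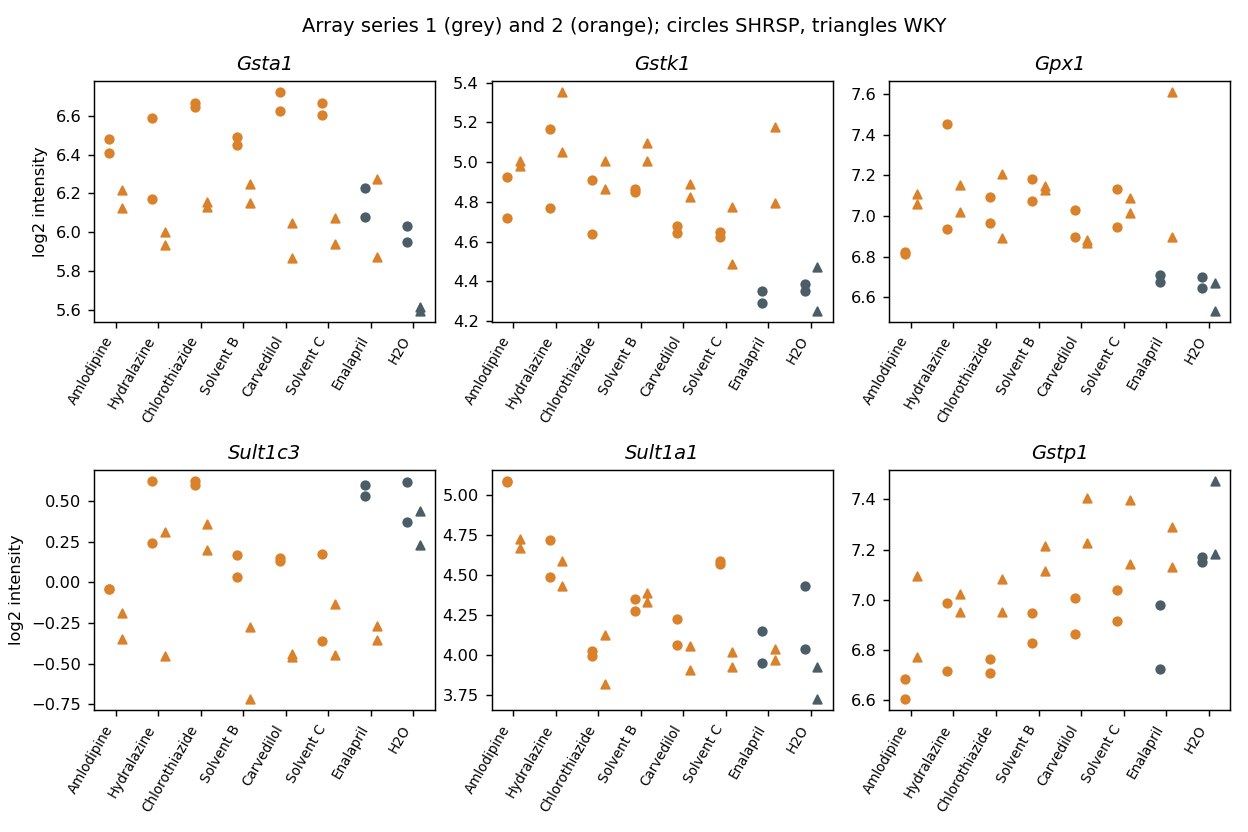
Log2 intensity of 6 genes on each array of SHRSP (circles) and WKY (triangles), by compound, coloured by array series 1 (grey) or 2 (orange). Gstk1 and Gpx1 are lower on all arrays of series 1, whatever the compound, while Sult1a1 is highest under amlodipine within each strain.

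With scan session as a fixed block, which cannot adjust for the series of the H2O arrays, the calls fell to 3 for amlodipine and 2 for hydralazine. Sult1a1 and Gsta1 kept their amlodipine calls in every alternative and every left-out array. Both were also called higher for Solvent B and Solvent C, without a drug, against H2O. Sult1a1 had 5.09 and 5.08 in SHRSP and 4.67 and 4.73 in WKY under amlodipine, against 4.03 and 4.43 in SHRSP and 3.72 and 3.92 in WKY with H2O. The amlodipine arrays were the highest of their strain. The difference was 0.87 ± 0.092 (limma adjusted p = 4.53e-07), and 0.53 ± 0.092 under hydralazine, against 0.28 ± 0.08 for Solvent B and Solvent C. Gstp1, Sult4a1, Nqo1 and Gclm, lower under both drugs, differed with Solvent B and Solvent C by -0.17, -0.21, -0.15 and -0.15 without a call. The strains' responses to amlodipine and to hydralazine were called different in 0 members each by limma (4 at an unadjusted p below 0.05 in either), against 0.396% and 0.372% of all tested probes.

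Around the set, genes that feed or undo conjugation differed between strains too, on vehicles. Of 18 genes of the NRF2 and thioredoxin list that were measured, 2 were higher and 5 lower in SHRSP (38.9% called, against 21.8% of all tested probes), with a median of -0.031. Cbr1, a carbonyl reductase, had no GOOD flag on the SHRSP vehicle arrays (mean -1.37), 7 of 8 of which were at the floor, and averaged 0.52 on the WKY vehicle arrays, all of them GOOD. Its probe signal was at least 3.59-fold lower in SHRSP (limma adjusted p = 2.66e-18). That fold is a bound against the lowest GOOD signal of each SHRSP array or the floor, whichever is higher. Whether the probe reads both strains alike was not tested. Keap1, which holds NRF2 back (-0.20 ± 0.038), transketolase Tkt (-0.23 ± 0.045) and sulfiredoxin Srxn1 (-0.36 ± 0.085) were lower too, and the transporter Abcc3 (0.38 ± 0.11) and peroxiredoxin Prdx1 (0.18 ± 0.064), named after their values were seen, were higher. The gene of NRF2 itself, Nfe2l2, was not called (-0.05 ± 0.058). Of 20 genes of the glutathione cycle and peroxide removal, 3 were higher and 7 lower (50% called). Catalase, Cat, was higher by 1.00 ± 0.17, while 5-oxoprolinase Oplah (-0.38 ± 0.048), the microsomal transferase Mgst3 (-0.34 ± 0.055), glutaredoxin Glrx2 (-0.31 ± 0.05) and glutathione synthetase Gss (-0.27 ± 0.046) were lower. In the matched drug comparisons, 0 genes of these lists were called by limma except Gpx2 under enalapril in SHRSP (-0.89 ± 0.18, limma adjusted p = 0.0173).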

How the data were processed

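The deposited files give, per array, an intensity and a quality flag for each of 33849 CodeLink probes. From the values, the authors scaled each array's intensities to a median of 1 and subtracted a background. No source used here names the software. Cy5-labelled cRNA was hybridised, per the labels' protocols. Here intensities were quantile normalised, floored at 0.38 (the median over arrays of the 1st percentile of GOOD spots) and put on the log2 scale. Tested were the 24993 probes flagged GOOD on each of the 2 arrays of some group. The fit used limma 3.58.1 under R 4.3.3 (1 mean per group over all 40 arrays, 20 residual degrees of freedom, standard errors after eBayes), with Benjamini-Hochberg adjustment over all of them and calls below 0.05. The script was tested on simulated data. Tables and plots used Python 3.11.15, NumPy 2.4.6, pandas 2.3.3 and Matplotlib 3.10.9.

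Probes were named from GEO's platform annotation: 16753 had 1 gene symbol, 165 several and 16931 none, and 7 probes listing several conjugation genes were left out. Of several probes of a gene the brightest was used (10 members). A scan session is a shared scan date (6 sessions), and an array series is the leading number of the array name (3 series), whose meaning the labels do not give. The labels carry no vehicle for each drug. The text names every called member where few were called, the 9 listed genes on vehicles, and at most 5 called genes of each pathway list. The pathway lists were NRF2 and thioredoxin, glutathione cycle and peroxide removal, cofactor supply, and regulators. Members, lists and the vehicle of each drug were chosen with earlier results of these data known. Among 780 pairs of arrays, none held identical values. The number of arrays limits the precision. Alternatives covered background correction, scaling, the authors' series table, flags, floor, scan session, eBayes settings, array weights, the groups in the fit and single arrays left out.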

Additional observations from a re-analysis of the deposited data

Results flagged for a closer look

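In groups of 8 vehicle arrays, 5 of 80 combinations of gene and strain had 1 array far from the others. Gstp3 in both strains and Sult5a1 and Ugt2a1 in SHRSP were at the floor on all 8 arrays and could not be tested. About 1 in 20 is the rate for 8 values of 1 normal distribution, while these arrays come from 4 vehicles. Gstm3 was 1.28 on the second SHRSP H2O array, against 0.85 on the nearest SHRSP array, and 0.51 on the first WKY H2O array, the lowest, against 0.69 on the nearest. Gstt1 was 4.05 on the first SHRSP Solvent A array, against 3.86 on the nearest. Gpx3 was 8.24 on the first WKY Solvent A array, against 8.43 on the nearest. Sult5a1 was -0.66 on the first WKY Solvent C array, against -1.05 on the nearest, in a gene mostly at the floor. None of these genes was called between strains on vehicles.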

How the results depend on the processing

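No paired analysis was possible because the labels carry no replicate numbers. Array series as a random block could not be fitted, since each group lies in 1 series. Strain counts stayed within 1.5 times under every alternative, at 14 to 18 genes on vehicles (17 to 19 with 1 array left out) and 16 to 22 under drugs (18 to 22), and 15 of 18 and 17 of 21 strain calls held throughout. Drug counts were less stable, and the causes were not tested. Enalapril in SHRSP gave 0 calls with normexp, median scaling, the authors' series table, GOOD flags on all 40 arrays, a trended robust eBayes, only the compared groups or a pooled floor, and 2 with scan session as a fixed or random block. The mean over drugs in SHRSP gave 1 call (Hmox1) with normexp, median scaling, either session block, the trended eBayes or array weights. Chlorothiazide gave 1 with median scaling, GOOD flags on all arrays, either session block or array weights, and candesartan 1 with array weights. Carvedilol gave 2 with median scaling, the random block or array weights, 3 with the fixed block, and 0 with GOOD flags on all arrays, the trended eBayes or only the compared groups. With the fixed and random block amlodipine gave 3 and 4 and hydralazine 2 and 3, and hydralazine gave 7 with array weights and 1 with only the compared groups. The fixed block cannot adjust for the array series of H2O. It turned the sign of Gpx1 (-0.076), Gsta3 (-0.091) and Gsta6 (0.16) for amlodipine and of Gpx1 (-0.049), Gsta3 (-0.030) and Sult2b1 (-0.092) for hydralazine. With 1 array left out, counts ranged over 14 to 16 for amlodipine, 11 to 17 for hydralazine, 0 to 2 for carvedilol and 0 to 1 for chlorothiazide, enalapril in SHRSP, the drugs in SHRSP and the strain difference under hydralazine, and were 0 to 0 elsewhere. The pooled floor and the enalapril pair left out were chosen after seeing the data.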

Other observations

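Enzymes that supply or undo conjugation differed between strains on vehicles as well. Of 10 measured genes of cofactor supply, 3 were higher and 3 lower in SHRSP (60% called, against 21.8% of all tested probes). Ugdh, which makes the glucuronic acid donor, was higher (0.35 ± 0.081, limma adjusted p = 0.00267), while Papss1, which makes the sulfate donor (-0.25 ± 0.043, limma adjusted p = 0.000136), and arylsulfatase A, Arsa (-0.48 ± 0.046, limma adjusted p = 2.58e-08), were lower. Of 9 measured regulators, 0 were higher and 2 lower, which is 22.2%, near the share of all tested probes. They were Mafg, a small MAF partner of NRF2 (-0.55 ± 0.081, limma adjusted p = 1.62e-05), and the nuclear receptor Nr1i3. Nr1i3 was at the floor on 6 of 8 SHRSP arrays, with a GOOD flag on 2, and averaged 0.84 on the WKY arrays, all of them GOOD (limma adjusted p = 1.19e-08). The size of its difference is not given, since the floor sets it.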
